A study of Hordeum vulgare with 18 samples.

Results

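Laanaceur (M4), a Moroccan barley variety, lacked leaf transcripts of 48 genes that were read in both Oussama (M5), another Moroccan variety, and Golden Promise (GP), a European spring barley. These genes were chosen from their measured levels. Each had at most 3 sense-strand reads summed over the 6 M4 libraries, and a mean of at least 1 CPM both in the 6 M5 libraries and in 4 GP libraries, where CPM is the read count of a gene per 1000000 reads counted on genes. They were 48 of the 43050 genes in the count files, and 48 of the 16929 genes that reached 1 CPM in M5 and GP (0.284%). Since the levels in M4, M5 and GP chose the genes, the low level in M4 is a description and was not tested.

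Leaf RNA was sequenced in 18 libraries, 3 in each of 6 groups. Plants of M4, M5 and GP were sown in sand and watered from sowing with low nitrate (LN, 0.5 mM) or high nitrate (HN, 5 mM), and leaves of 1 or 2 plants per sample were taken 14 days after sowing. Replicate numbers were 1, 3 and 4 in M4 LN, 1, 2 and 4 in M4 HN, 1, 2 and 3 in each M5 group, 1, 2 and 3 in GP LN, and 1, 2 and 4 in GP HN. The library titled M4 HN replicate 4 carries a treatment label of 0.5 mM and was kept under its title. All reads had been mapped to the genome of Morex, a different cultivar. In units of 1000000, gene reads came to 11.8 to 22.3 per library, so that 1 CPM stands for at least 11.8 reads. The tissue was not checked against leaf markers, since few of the gene IDs have a name in the sources used here.

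Cultivars of one cereal species do not carry an identical set of genes. A gene annotated in the reference cultivar can be missing from another cultivar, be present and silent, or differ so much in sequence that reads no longer map to it. RNA counts on a single reference show the absence of mapped reads and cannot tell these apart, nor, in a whole leaf, fewer cells of a type from less RNA per cell. None of the 48 gene IDs was named in the sources used here, so they are called by ID and no function is given.

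Both GP replicate 1 libraries were left out of the choice and of the tests, because they held transcripts of genes otherwise counted in another variety. Over 14 genes otherwise found in M4 only, GP HN replicate 1 reached 16.5% (median) of the M4 level, and over 19 genes otherwise found in M5 only, GP LN replicate 1 reached 45.5% (median) of the M5 level. All 48 genes were still read in both libraries. Relative to the other libraries of its group, GP HN replicate 1 had a median ratio of 0.869 over the 48 genes and 1.01 over the 16929 genes, and GP LN replicate 1 had 0.834 and 0.976. In each of these libraries 32 of the 48 genes lay below the mean of the other libraries.

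The 48 genes were close to empty in every M4 library and were read in nearly every M5 and GP library. Over all 6 M4 libraries the 48 genes together collected 30 reads, out of 118.8 units of 1000000 gene reads. No read at all was found for 29 genes, 1 read for 11 genes, 2 reads for 5 genes and 3 reads for 3 genes, and no gene had more than 2 reads in a single M4 library. Summed over the genes, a library held 1 to 12 reads (0.0683 to 0.555 CPM) in M4, 238.2 to 306.7 CPM in M5 and 293.8 to 387.7 CPM in the 4 GP libraries.

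M4 LN replicate 3 held 12 of the 30 reads, spread over 9 genes, the most of any M4 library. Without it 56 genes met the limit, among them all 48, and without any other single M4 library 50 or 51 genes did. In M5, 47 of the 48 genes were read in all 6 libraries, the exception being HORVU1Hr1G024090, which had 0 reads in M5 LN replicate 1 and 1.69 to 3.91 CPM in the other M5 libraries. All 48 genes were read in all 4 GP libraries.

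**Figure D1:**
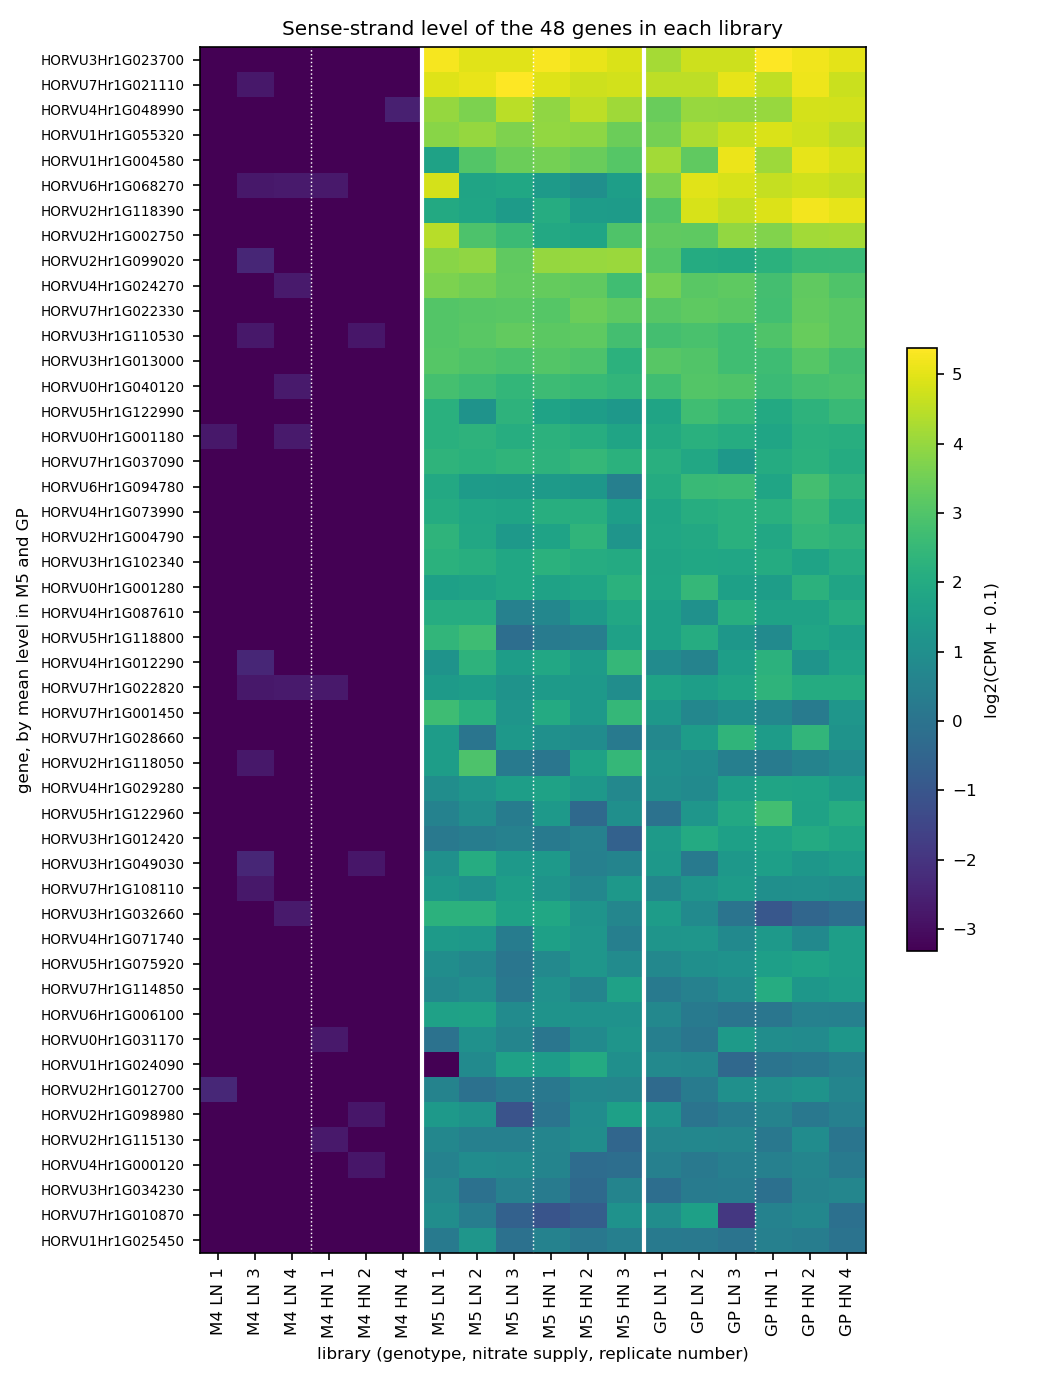
Level of each of the 48 genes (rows, ordered by mean level in M5 and GP) in each of the 18 libraries (columns), as log2 of sense-strand CPM plus 0.1. The 6 M4 columns are dark throughout, with single cells of 1 or 2 reads, and the M5 and GP columns hold reads in all cells but 1, including the GP replicate 1 libraries that were not used to choose the genes.

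Most of the 48 genes were weakly read where they were read. The median of their mean CPM over M5 and GP was 3.01, with a range of 1.16 to 31.99, against 17.6 CPM for all 16929 genes. Only 8 of the 48 (16.7%) reached 10 CPM, against 64.4% of the 16929 genes, 29 lay between 2 and 10 CPM and 11 lay under 2 CPM. A lower level leaves a smaller drop to the limit of 3 reads. Whether this bears on the share of weakly read genes was not tested. CPM is a share of reads and was not divided by gene length, so it does not rank the genes by transcript number.

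For the 29 genes without a read in M4, a fold change can only be bounded, taking 3 reads over the 6 M4 libraries as the floor (0.0252 CPM) and reads pooled over the libraries of each variety. From the pooled reads they were at least 39.5-fold to at least 1354-fold higher in M5 than in M4 (median 108.4), and at least 40.4-fold to at least 1235-fold higher in GP (median 142.1).

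The gene with the most reads was HORVU3Hr1G023700 on chromosome 3H. It had 0 reads in M4, and 37.7, 31.4 and 31.6 CPM in M5 LN and 38.7, 33.9 and 29.4 CPM in M5 HN. In GP it had 25.8 and 26.4 CPM under LN and 36.5 and 32.2 CPM under HN. Its M5 and GP values overlapped, and its pooled level in M5 was at least 1354-fold that in M4.

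HORVU7Hr1G021110 was next, with 1 read in the 6 M4 libraries, 31.8 ± 5.34 CPM in M5 (SD, n = 6) and 29.1 ± 6.14 CPM in GP (SD, n = 4). Its ratio of M5 to M4 was 3757, with a 95% interval of 673.7 to 148424 that covers counting error only (exact binomial, Clopper-Pearson). HORVU4Hr1G048990, also with 1 read in M4, had 17.6 ± 3.97 CPM in M5 and 21.7 ± 6.58 CPM in GP. The M5 and GP libraries overlapped for each of these genes, and also for HORVU4Hr1G024270 (1 read in M4), with 9.87 ± 2.11 CPM in M5 and 8.83 ± 0.695 CPM in GP.

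Of the 10 genes with the most reads, 4 had a higher mean in GP than in M5 without passing the test of that difference given below, HORVU4Hr1G048990 among them. HORVU1Hr1G055320 had 0 reads in M4, 13.9 ± 1.99 CPM in M5 and 23.4 ± 3.10 CPM in GP. Its M5 libraries (10.5 to 15.7 CPM) all lay below its GP libraries (19.5 to 26.7 CPM), with an edgeR adjusted p of 0.0521. HORVU1Hr1G004580 had 0 reads in M4, 8.69 ± 3.06 CPM in M5 and 26.4 ± 11.6 CPM in GP, where single libraries ran between 9.50 and 34.7 CPM. HORVU2Hr1G002750 had 0 reads in M4, 8.37 ± 6.83 CPM in M5 and 15.2 ± 4.22 CPM in GP. For HORVU2Hr1G002750 the highest M5 library was M5 LN replicate 1, at 21.8 CPM, and without it the M5 mean was 5.69 ± 2.07 CPM (SD, n = 5).

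The limits of the rule cut through a short tail of genes. The genes with 3 reads in M4 were HORVU3Hr1G049030, HORVU7Hr1G022820 and HORVU6Hr1G068270. Just outside, 5 genes had 4 reads, 1 had 5, 3 had 6 and 2 had 7. HORVU5Hr1G121290, with 4 reads in M4, had 8.18 CPM in M5 and 2.59 CPM in GP, and HORVU7Hr1G019600, also with 4 reads, had 3.09 and 4.32 CPM. Raising the limit to 10 reads gave 67 genes and lowering it to 0 gave 29.

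On the level side, HORVU3Hr1G032660 and HORVU1Hr1G025450 were kept with 1.001 and 1.005 CPM in GP, and HORVU2Hr1G110720 and HORVU3Hr1G027950 were left out with 0.947 and 0.527 CPM. In M5, HORVU7Hr1G010870 and HORVU3Hr1G012420 were kept with 1.07 and 1.09 CPM, and HORVU4Hr1G001700 and HORVU6Hr1G070380 were left out with 0.904 and 0.852 CPM.

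The same rule turned to the other varieties gave 59 genes without transcripts in M5 only (0.347% of 16990 genes) and 92 genes without transcripts in GP only (0.543% of 16933 genes). The GP count rests on 4 libraries and 72.5 units of 1000000 gene reads, against 6 libraries and 118.8 such units in M4, so the limit of 3 reads was easier to meet in GP.

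The ID of a gene holds its chromosome and a number that rises along the chromosome, which placed 44 of the 48 genes. There were 4 on chromosome 1H, 8 on each of 2H, 3H and 4H, 4 on 5H, 3 on 6H and 9 on 7H. These were between 0.152% (5H) and 0.381% (4H) of the expressed genes of a chromosome, meaning genes with at least 1 CPM in M5 and GP. The remaining 4 genes had no chromosome in their ID and made up 0.870% of the 460 expressed genes of that kind. Positions in base pairs were not used here.

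The 44 genes lay toward the chromosome ends. In the outer 10% of IDs at either end lay 17 of them (38.6%), against 17.9% of the 16451 placed expressed genes. In the inner 40% of IDs lay 6 (13.6%), against 41.6% of the expressed genes. For the genes without transcripts in M5 only, the outer share was 29.4% (15 of 51) and the inner share 25.5%, and for those of GP only 41.1% (37 of 90) and 32.2%. These shares are descriptions and their differences were not tested.

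**Figure D2:**
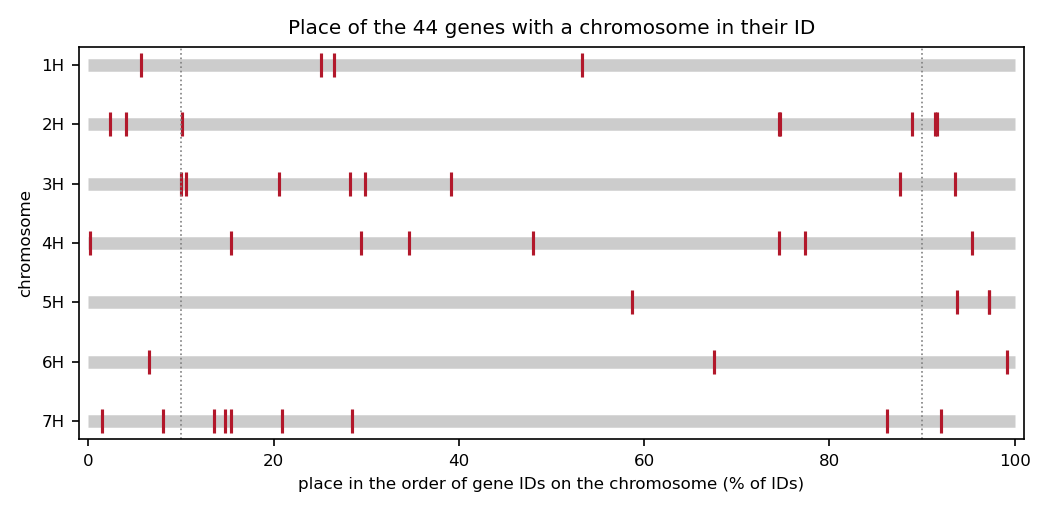
Place of the 44 genes along chromosomes 1H to 7H, as the rank of their ID among all gene IDs of the chromosome in percent (not base pairs). Each red mark is 1 gene, and the dotted lines bound the outer 10% at either end, which hold 17 of the 44 genes.

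Few of the genes were neighbours. A run was counted where genes followed each other with no other expressed gene between them, and only 1 was found, HORVU5Hr1G122960 and HORVU5Hr1G122990 near the end of 5H. Runs held 5 of the genes without transcripts in M5 only and 6 of those of GP only. Between consecutive genes on a chromosome lay a median of 139 expressed genes, and 4 pairs had at most 10 between them.

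Neither gene of the run had a read in M4. HORVU5Hr1G122960 had 1.34, 1.86 and 1.15 CPM in M5 LN, 2.49, 0.684 and 1.90 CPM in M5 HN, 2.27 and 3.71 CPM in GP LN and 3.14 and 4.12 CPM in GP HN. HORVU5Hr1G122990 had 4.47, 2.11 and 4.77 CPM in M5 LN, 3.19, 2.73 and 2.37 CPM in M5 HN, 6.46 and 5.44 CPM in GP LN and 4.80 and 5.85 CPM in GP HN. LN and HN libraries of these genes overlapped in M5.

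The stretch without M4 transcripts was longer than the rule shows. The expressed gene just before the run, HORVU5Hr1G122950, had 6 reads in M4 (0.0458 CPM, 4 of them in M4 LN replicate 3) and was therefore not counted, with 24.5 ± 6.72 CPM in M5 and 32.9 ± 8.03 CPM in GP. Further off, HORVU5Hr1G122860 had 12.3 CPM in M4, 71.7 CPM in M5 and 5.28 CPM in GP.

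Allowing 1 expressed gene between members added a pair on 2H, HORVU2Hr1G098980 and HORVU2Hr1G099020. The gene between them, HORVU2Hr1G098990, was read in every genotype, with 3.51 ± 0.490 CPM in M4, 1.84 ± 0.523 CPM in M5 and 2.51 ± 0.421 CPM in GP. The other close pairs were HORVU3Hr1G012420 and HORVU3Hr1G013000 on 3H and HORVU7Hr1G022330 and HORVU7Hr1G022820 on 7H, each with 7 expressed genes between them.

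Most genes next to the 44 were read in M4 as elsewhere. Of the 85 nearest expressed genes on either side, 78 (91.8%) had at least 1 CPM in M4. The share was 98.4% over all 16407 placed expressed genes outside the 44, a set that includes these neighbours. The median ratio of M4 to the mean of M5 and GP was 0.946 for the neighbours and 0.961 for the 16407 genes. A ratio under 0.25 was found for 5 neighbours (5.88%), against 1.01% of the 16407 genes.

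The low neighbours were HORVU5Hr1G122950, above, and 4 others. HORVU5Hr1G075870 on 5H had 0.170 CPM in M4 (21 reads), 24.2 CPM in M5 and 33.6 CPM in GP. HORVU6Hr1G006110 on 6H had 0.118 CPM in M4 (14 reads), 40.8 CPM in M5 and 15.0 CPM in GP. HORVU6Hr1G006090 had 0.363, 2.64 and 1.84 CPM in M4, M5 and GP, and HORVU3Hr1G012980 had 0.421, 4.35 and 3.20 CPM. These 5 low neighbours lay beside 4 loci of the 48 genes, with both neighbours of HORVU6Hr1G006100 among them. HORVU6Hr1G006110 shares its reads with HORVU6Hr1G006100, as given below, so it is not a separate low gene.

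Reads on the opposite strand were counted in the same files and did not enter the rule, although they come from the same libraries. For 45 of the 48 genes there were next to none, with sums of 1 read in M4, 80 in M5 and 20 in the 4 GP libraries. The other 3 genes had over 100 antisense reads in M5 or GP and differed from each other in M4. Of the 45 genes, HORVU0Hr1G040120, HORVU1Hr1G055320, HORVU3Hr1G110530 and HORVU7Hr1G022820 shared their reads with another gene. Counted without regard to strand, where a read that meets more than 1 gene is given to none, they kept 0 reads in each variety. Kept apart by strand, the same reads were given to these genes, so the overlapping gene lies on the other strand. Antisense reads of these genes came to at most 2 in any variety. Their sense reads cannot be told apart from antisense reads of the overlapping gene.

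At HORVU2Hr1G118390, on 2H, M4 lacked sense reads and had antisense reads, most of which are shared with another gene. The sense strand had 0 reads in M4, 313 in M5 and 2260 in GP, and the antisense strand had 1402 reads in M4, 1183 in M5 and 1018 in GP. In CPM the antisense strand stood at 11.4, 11.7 and 10.8 in M4 LN and 11.9, 12.4 and 12.8 in M4 HN, against means of 12.2 ± 1.27 in M5 (SD, n = 6) and 14.0 ± 1.08 in GP (SD, n = 4). M4 and M5 overlapped on the antisense strand. Counted without regard to strand, where a read that meets more than 1 gene is given to none, HORVU2Hr1G118390 kept 48 reads in M4, 303 in M5 and 2110 in GP. The antisense reads therefore cannot be told apart from reads of an overlapping gene. The next gene, HORVU2Hr1G118410, was read at 26.4 CPM in M4, 25.4 CPM in M5 and 30.4 CPM in GP.

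At HORVU5Hr1G075920, on 5H, both strands were nearly empty in M4. The antisense strand had 4 reads in M4, all in M4 LN replicate 3, against 4043 reads in M5 and 2807 in GP, and exceeded the sense strand, which had 0, 163 and 184 reads. Its neighbours HORVU5Hr1G075870, above, and HORVU5Hr1G075880 were low in M4 too, the second with 1 read in M4, 0.531 CPM in M5 and 0.527 CPM in GP.

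At HORVU6Hr1G006100, on 6H, the antisense strand had 14 reads in M4, 3907 in M5 and 1117 in GP, and the sense strand 0, 225 and 85. The next gene, HORVU6Hr1G006110, mirrored it. Its sense strand had 14 reads in M4, 3906 in M5 and 1117 in GP, and its antisense strand 0, 225 and 85. The gene IDs therefore share their reads, and the sense reads of HORVU6Hr1G006100 cannot be told apart from antisense reads of HORVU6Hr1G006110. Both strands of this locus were near 0 in M4.

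**Figure D3:**
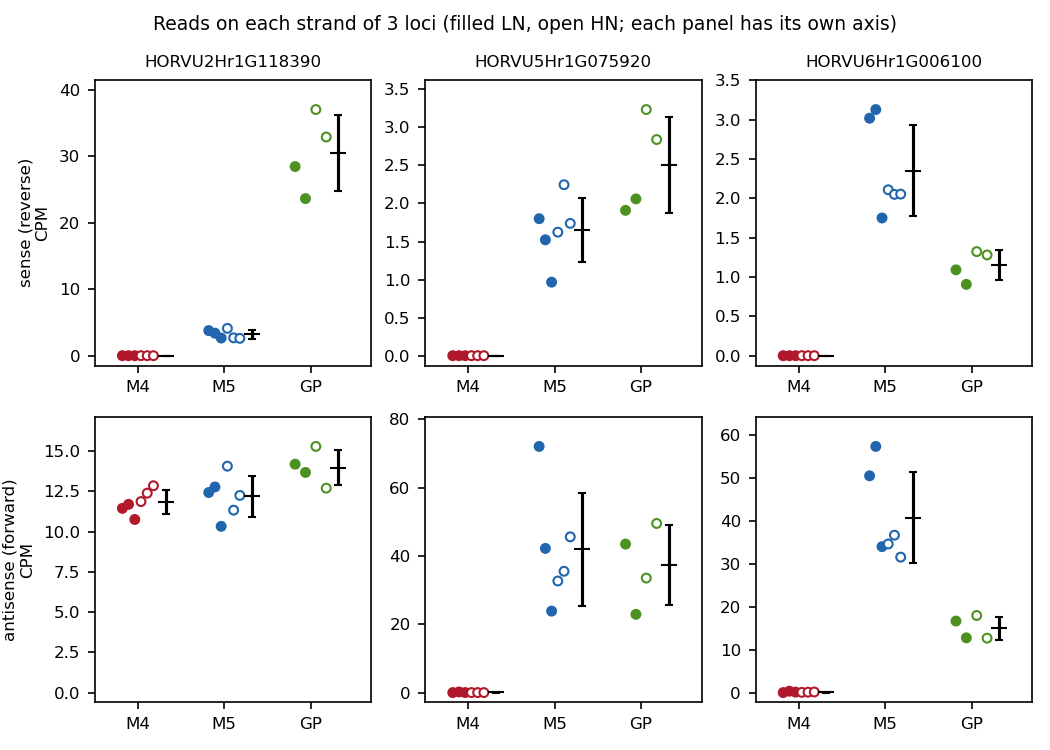
Sense (top) and antisense (bottom) CPM of 3 genes in M4, M5 and GP, 1 point per library (6, 6 and 4 libraries, filled LN and open HN), with the mean and SD beside them. HORVU2Hr1G118390 had 0 sense reads in M4 and an antisense level of 10.8 to 12.8 CPM there, mostly shared with another gene, while the other 2 genes were near 0 on both strands in M4.

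The response of the 48 genes to nitrate supply could be measured only where they were read, in M5 and GP. LN was compared with HN by edgeR's quasi-likelihood test with Benjamini-Hochberg adjustment over 18952 genes, and a gene was called at an adjusted p under 0.05. None of the 48 genes was called, in M5, in GP, in their mean or in the difference between their responses. The background was low as well, at 0.0211% of all genes called in M5, 0% in GP, 0.0686% in the mean and 0% in the difference. At an unadjusted p under 0.05 the 48 genes gave 1 in M5, 1 in GP, 2 in the mean and 0 in the difference, against 7.31%, 2.37%, 4.94% and 2.97% of all genes. DESeq2 and edgeR's likelihood ratio test called 0 of the 48 as well. Of all 18952 genes DESeq2 called 236 in M5, 7 in GP, 84 in the mean and 3 in the difference. The likelihood ratio test called 131, 12, 65 and 2.

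The GP values carry a further limit. Replicate number was a term of the fit, number 4 occurred only in M4 and GP HN, and these genes have next to no reads in M4. GP HN replicate 4 therefore hardly entered their fit, and leaving it out moved the log2 fold change in GP by a median of 0.0115 and at most 0.19. The GP response of the 48 genes thus rested on GP LN replicates 2 and 3 against GP HN replicate 2.

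Fitted log2 fold changes of LN over HN had a median of −0.03 in M5 (−1.34 to 1.48), with 21 genes above 0 and 27 below, against a median of 0.02 over all genes. In GP the median was −0.17 (−1.12 to 1.43), with 15 genes above 0 and 33 below, against 0.01 over all genes. The median SE of a gene was 0.36 in M5 and 0.53 in GP, above the median size of the fold changes, which was 0.22 in M5 and 0.33 in GP.

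In M5 the LN libraries lay wholly above the HN libraries for 2 of the 48 genes (4.17%, background 10.8%) and wholly below for 1 (2.08%, background 3.47%). With only 2 libraries a side in GP, LN lay wholly above HN for 4 genes (8.33%, background 17.9%) and wholly below for 13 (27.1%, background 13.2%). LN and HN in GP also differ in replicate number, 2 and 3 against 2 and 4. Within replicates 1, 2 and 3 of M5 the median log2 ratio of LN to HN was 0.03, 0.16 and 0.12, with 26, 30 and 27 of the 48 genes higher under LN. Within replicate 2 of GP it was −0.29, with 14 genes higher. These ratios were taken from CPM without TMM size factors and are given without a share over all genes. The fitted median in M5, with those factors, was −0.03.

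**Figure D4:**
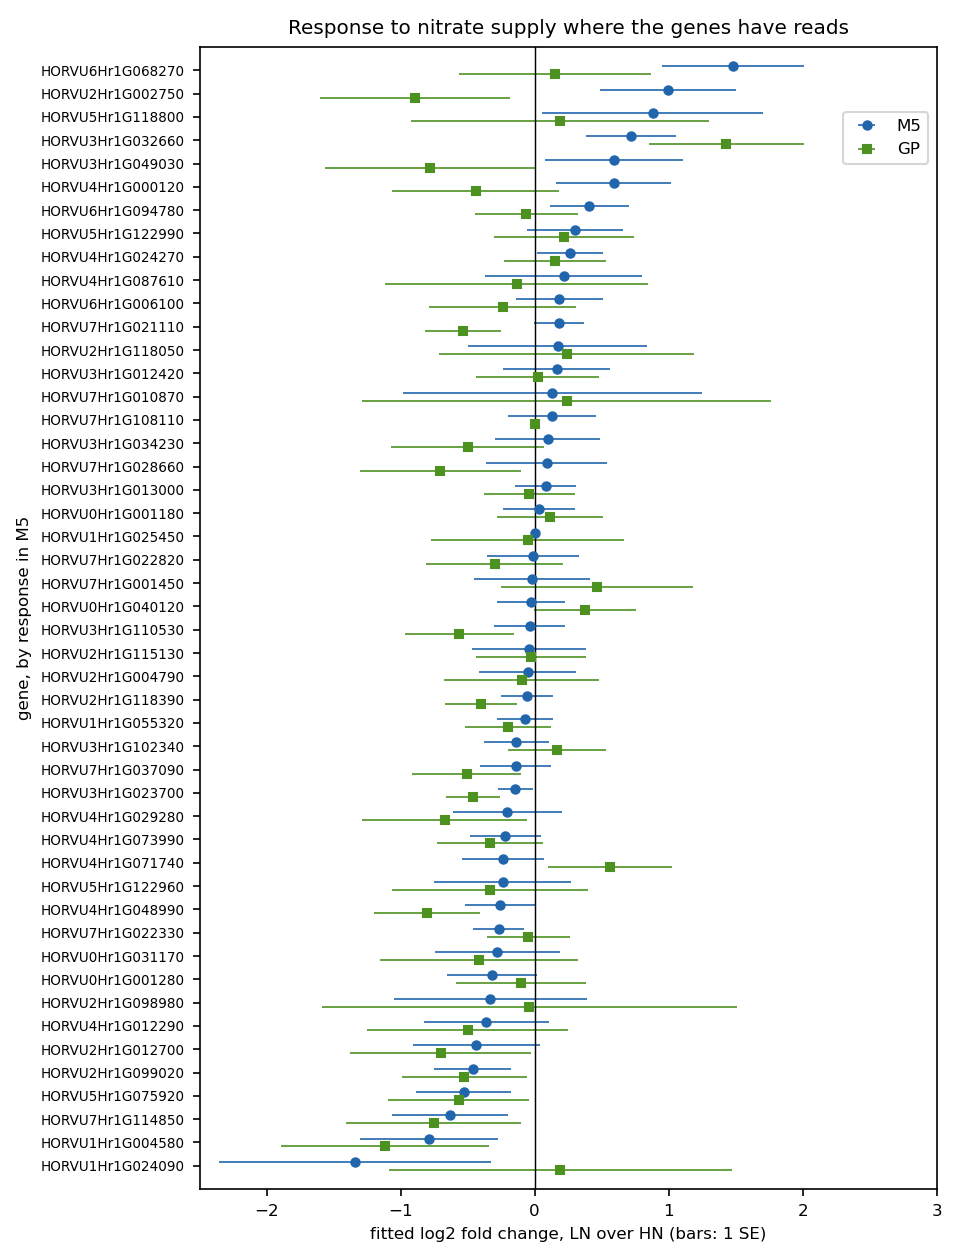
Fitted log2 fold change of LN over HN for each of the 48 genes in M5 (circles) and GP (squares), ordered by the M5 value, with bars of 1 SE (none is drawn where the fold change is under 0.01 in size). Most bars cross or come close to 0, and no gene passed the test in either genotype.

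HORVU6Hr1G068270, on 6H, had the largest LN over HN value in M5, with 1 library far above the rest. It had 27.7, 3.30 and 3.50 CPM in M5 LN and 2.60, 1.90 and 2.84 CPM in M5 HN, and 31.6 and 28.9 CPM in GP LN and 27.0 and 24.2 CPM in GP HN. LN lay above HN in both genotypes, with M5 LN replicate 1 about as high as GP. The log2 fold change in M5 was 1.48 (SE 0.53, edgeR adjusted p = 0.482), 0.43 without M5 LN replicate 1 and 0.52 without M5 HN replicate 1. In M4 this gene had 3 reads.

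HORVU3Hr1G032660, on 3H, had the largest value in GP. It had 4.70, 4.65 and 3.14 CPM in M5 LN and 3.52, 2.15 and 1.5 CPM in M5 HN, and 1.68 and 0.906 CPM in GP LN and 0.637 and 0.780 CPM in GP HN. The groups overlapped in M5 and not in GP. Its log2 fold change was 1.43 in GP (SE 0.58, edgeR adjusted p = 1), 0.72 in M5 and 1.08 in the mean (SE 0.34, edgeR adjusted p = 0.787), so it did not pass the test. The GP value was 0.87 without the replicate term and 3.16 without GP HN replicate 2.

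HORVU2Hr1G099020, on 2H, lay lower under LN in both genotypes without passing the test. It had 14.2, 15.2 and 9.48 CPM in M5 LN and 15.8, 16.1 and 16.6 CPM in M5 HN, and 4.0 and 3.79 CPM in GP LN and 5.64 and 5.79 CPM in GP HN. The LN libraries were below the HN libraries throughout, and the mean log2 fold change was −0.49 (SE 0.27, edgeR adjusted p = 1), at −1.72 without GP HN replicate 2 and −0.19 with all 18 libraries. The only other gene without overlap in M5 was HORVU6Hr1G094780, with 3.72, 2.62 and 2.60 CPM in M5 LN and 2.60, 2.34 and 1.26 CPM in M5 HN and a mean log2 fold change of 0.17. Its lowest LN and highest HN libraries were nearly equal. HORVU3Hr1G023700, the most read gene, had a mean log2 fold change of −0.30 (SE 0.12, unadjusted p in edgeR 0.0427, adjusted p = 0.999).

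Between M5 and GP the share of the 48 genes called was near that of all tested genes in the fit with the replicate term. By edgeR's quasi-likelihood test 6 of the 48 (12.5%) were called, against a background of 12.3%. The rule set a minimum in both varieties and not a difference between them. The background held all 18952 tested genes, which did not have to reach that minimum, so the shares are not like for like. The median size of the log2 fold change was 0.41 over the 48 genes and 0.19 over all tested genes. At an unadjusted p under 0.05 there were 15 (31.3%), against a background of 23%. Higher in M5 were 2 genes (background 5.85%) and lower in M5 were 4 (background 6.47%). The M5 and GP libraries did not overlap for 8 of the 48 genes, with M5 above in 2 (4.17%, background 6.31%) and below in 6 (12.5%, background 7.22%). GP HN replicate 4 hardly entered this fit either. Number 1 was left only in M4 and M5, so the M5 replicate 1 libraries hardly entered it as well. For HORVU2Hr1G118390 the log2 fold change was −3.35, and −3.35 without M5 HN or M5 LN replicate 1. It was −3.22 without M5 HN replicate 2 and −3.42 without M5 LN replicate 2. Without the replicate term, where these libraries count fully, 11 of the 48 (22.9%) were called against a background of 14.8%. The 6 genes were among them. Without GP LN replicate 3 the number fell to 3, and without GP HN replicate 2 it fell to 0. Calls over all tested genes fell in both of these fits too. In the fit without GP HN replicate 2, replicate 4 is the one GP HN library left. Its level can hardly be told apart from the term for replicate 4.

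Of the 4 genes lower in M5, HORVU2Hr1G118390 differed most. It had 3.77, 3.38 and 2.66 CPM in M5 LN and 4.11, 2.69 and 2.61 CPM in M5 HN, and 28.5 and 23.6 CPM in GP LN and 37.0 and 32.9 CPM in GP HN. All M5 libraries lay far below all GP libraries, with a log2 fold change of −3.35 (SE 0.18, edgeR adjusted p = 2.83e-05). The 3 genotypes thus had 3 separate levels of this sense transcript, none in M4, about 3.20 CPM in M5 and 30.5 CPM in GP.

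HORVU6Hr1G068270 was lower in M5 with a log2 fold change of −3.25 (SE 0.47, edgeR adjusted p = 0.000717). Its M5 mean of 6.97 ± 10.2 CPM (SD, n = 6), against 27.9 ± 3.13 CPM in GP (SD, n = 4), held the high M5 LN replicate 1. Without that library the M5 mean was 2.83 ± 0.629 CPM (SD, n = 5) and the fitted difference −3.32. That fit is no check on the library, since the M5 replicate 1 libraries hardly entered the fitted difference in the first place. With that library kept and the replicate term left out, the difference was −2.43.

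HORVU6Hr1G094780 had 2.52 ± 0.782 CPM in M5 and 5.84 ± 0.809 CPM in GP, and a log2 fold change of −1.41 (SE 0.28, edgeR adjusted p = 0.0169). Beside the fit without GP HN replicate 2, its call was lost without GP LN replicate 3 and without M5 LN replicate 2. HORVU3Hr1G012420 had 1.09 ± 0.286 CPM in M5 and 3.51 ± 0.461 CPM in GP, and a log2 fold change of −1.57 (SE 0.36, edgeR adjusted p = 0.0341). The call of HORVU3Hr1G012420 was lost without either GP LN library, any M5 HN library, or M5 LN replicate 1 or 2, with adjusted p up to 0.156 in these fits.

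The genes higher in M5 were HORVU2Hr1G099020 and HORVU3Hr1G032660, whose values are given above. HORVU2Hr1G099020 had 14.6 ± 2.62 CPM in M5 and 4.80 ± 1.06 CPM in GP, and a log2 fold change of 1.67 (SE 0.31, edgeR adjusted p = 0.00671), and 0.45 without GP HN replicate 2 (SE 0.89, edgeR adjusted p = 0.915). HORVU3Hr1G032660 had 3.28 ± 1.30 CPM in M5 and 1.001 ± 0.467 CPM in GP, and a log2 fold change of 1.85 (SE 0.37, edgeR adjusted p = 0.0101), whose call was also lost without GP LN replicate 3.

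**Figure D5:**
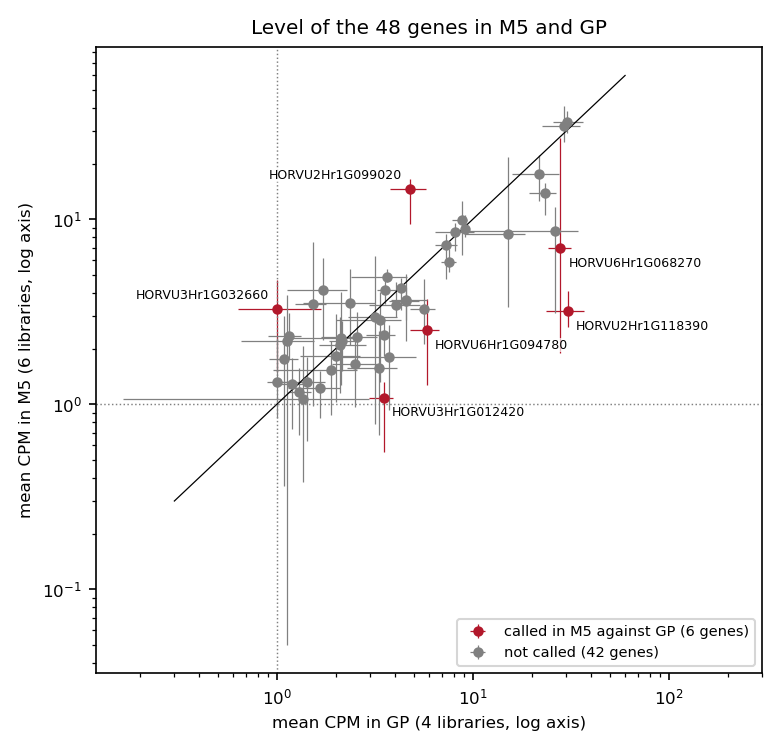
Mean CPM of each of the 48 genes in M5 (y axis, 6 libraries) against GP (x axis, 4 libraries), both on log axes, with bars from the lowest to the highest library (a lowest value of 0 is drawn at 0.05). The diagonal marks equal levels, the dotted lines the minimum of 1 CPM, and the 6 red genes were called, 2 above and 4 below the diagonal.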

How the data were processed

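Stranded single reads were trimmed (Trimmomatic 0.36), cleared of rRNA (sortMeRNA 2.1), and mapped and counted by the authors against Morex genes (STAR 2.7.3a, annotation IBSC_v2.48). The deposited values are raw counts per gene, without normalization, on either strand, the forward strand and the reverse strand. Reverse-strand counts were taken as sense. Reads without a gene (22.3 to 23.7% of a library) stayed out of library sizes. They include reads mapped to several places (14.9 to 16.7% of a library), which count for no gene, so near-identical copies are uncertain.

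The genes, lists and tests were chosen with earlier results of these data known. For tests, a gene needed more than 1 CPM in 3 or more of 16 libraries. The model (edgeR 4.0.16, R 4.3.3) used TMM size factors and had group and replicate number as terms, both GP replicate 1 libraries being left out. The SE is the size of the log2 fold change over the square root of F. The replicate term was taken from the study's methods, and dated samples of one number share a harvest day in the labels. Deviations of same-numbered libraries had a median correlation of −0.0180 over 25 pairs, and those of differently numbered libraries −0.00128 over 81 pairs. Alternatives were DESeq2 1.42.0, a likelihood ratio test, other size factors, filters, strands and libraries. Replicates are separate plant samples of 1 or 2 plants. Intervals and floors cover counting error only.

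Genes named are the 10 with the most reads, those in runs, those called, those with the largest responses without overlap in M5, and those beside each limit. Genes with an extreme response in 1 genotype, with antisense reads or beside low neighbours were named after their values were seen. None of 54 genes the study names was among the 48.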

Additional observations from a re-analysis of the deposited data

Results flagged for a closer look

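Antisense reads in M4, which the choice of genes did not use, were above the 3 reads that a count of 0 allows at 3 of the 48 genes, and 1 read was found at HORVU0Hr1G040120. HORVU2Hr1G118390 had 1402 antisense reads in the 6 M4 libraries, beside 1183 in M5 and 1018 in GP, but only 48 reads in M4 when reads that meet another gene on either strand are left out. HORVU5Hr1G075920 had 4, all in M4 LN replicate 3, beside 4043 in M5 and 2807 in GP. HORVU6Hr1G006100 had 14, the same number as the sense reads of HORVU6Hr1G006110, beside 3907 in M5 and 1117 in GP.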

How the results depend on the processing

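The number of genes was 29 with 0 reads allowed in M4 and 30 with a minimum of 2 CPM, and 45 to 56 with 1 library left out (leaving out M4 libraries was chosen after seeing the data). Genes in runs came to 4 with 1 expressed gene between. None of the 48 genes was called for nitrate supply under any alternative run, where at most 236 of all tested genes were (DESeq2, in M5). For M5 against GP, 6 of the 48 genes were called with the replicate block, beside 2334 of all 18952 tested genes. Without the block 11 were called (2814 of 18952), and with all 18 libraries 10 (2376 of 19021). By edgeR's likelihood ratio test 12 were called (2779 of 18952), and by DESeq2 8 (2674 of 18952). With 1 M4 or M5 library left out, 5 to 8 were called, beside 1726 to 2692 of all tested genes. Leaving out a GP library leaves 1 in its group, and the number then fell in some fits, as given above. When GP HN replicate 2 is left out, GP HN and replicate 4 can hardly be told apart for these genes. The GP response of HORVU6Hr1G068270 ran from −0.23 to 1.56 with 1 library left out, at −0.23 without GP LN replicate 2 and −0.00072 without M5 LN replicate 3. The block changed no call for nitrate supply. Pairs of libraries with the same number correlated above 0.1 in 6 of 25 cases, and pairs with different numbers in 21 of 81. Depth limits a gene without reads in M4 to 0.0252 CPM.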
